A study of Mus musculus with 9 samples.

Results

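The genes described here encode subunits of the proteasome, and they were chosen by name: every row of the count table whose symbol is Psma, Psmb, Psmc or Psmd followed by digits. The rule found 39 genes of 32594. Their mRNA was counted in hindlimb skeletal muscle of 5 wild type libraries and 4 libraries of SMN delta 7 mice, called SMA here, and both groups had the strain background FVB/N. SMN delta 7 mice model spinal muscular atrophy, in which motor neurons are lost and muscle wastes because survival motor neuron protein is scarce. The labels give neither the alleles of these mice nor their age, and do not say whether a library came from 1 animal or from several, so p-values measure only the spread among these samples, part of which may be technical.

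The proteasome is the protease that degrades proteins marked with ubiquitin, and in skeletal muscle it carries out much of the breakdown of contractile protein during wasting. Its barrel-shaped core is built from outer rings of alpha subunits (Psma genes), which gate the entrance, and inner rings of beta subunits (Psmb genes), of which Psmb5, Psmb6 and Psmb7 carry the active sites that cut peptides. Interferon induces Psmb8, Psmb9 and Psmb10, which take the places of Psmb5, Psmb6 and Psmb7 in the immunoproteasome. A regulatory particle caps the core: its base holds a ring of ATPases (Psmc genes) that unfold substrates, and its lid (most Psmd genes) removes ubiquitin. Psmd1, Psmd2 and Psmd4 belong to the base. Psmd5, Psmd9 and Psmd10 encode chaperones that assemble the base and leave the finished particle, and are counted with the subunits here.

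Library totals ran from 24917665 to 35087722 counts. Smn1, the mouse gene for survival motor neuron protein, was measured at 11.1 to 13.8 CPM in the wild type libraries and at 1.40 to 2.72 CPM in the SMA libraries, so its level followed the labels in every library. CPM here are counts-per-million of the library's total over genes that passed a filter on low counts, after TMM scaling. TMM scaling sets libraries to a common level from the bulk of their genes. The defining markers of skeletal muscle Ckm, Acta1, Tnnt3, Des and Myh4 together ran from 107000 to 152000 CPM in wild type and from 59300 to 71200 CPM in SMA, and 4 of these 5 genes fell. Summed counts of Y-linked genes exceeded those of Xist in 4 wild type libraries and 1 SMA library. The sex called in this way differed between the groups and was also fitted as a covariate.

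Of the 39 genes, 37 passed the filter on low counts and were tested. By edgeR's quasi-likelihood test with an adjusted p under 0.05 over 15873 genes, 6 rose in SMA muscle (Psma5, Psma7, Psmb2, Psmb3, Psmb4 and Psmd3) and 11 fell (Psmb5 to Psmb10, Psmc5, Psmd6, Psmd7, Psmd13 and Psmd14). The other 20 did not pass. Among all genes tested, 27.7% rose, 27.2% fell and 54.9% changed in either direction, against 45.9% of the tested subunits, so the subunits as a group did not change more often than genes at large. Their median log2 fold change was -0.08, beside 0.01 over all genes. Every SMA library lay above every wild type library for 7 subunits, Psmd4 among them although it did not pass, and below for 9, where the shares over all genes were 22.6% and 21.7%.

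The scale on which libraries were compared moved these counts. With libraries scaled to their total counts, the median over all genes rose to 0.24, and 74.7% of all calls were rises in place of 50.4%. On that scale 16 subunits rose and 4 fell (Psmb5, Psmb7, Psmb9 and Psmd6), where 40.2% of all genes rose and 13.6% fell, and the median subunit was at 0.15, below the median gene. The tested subunits together made up 0.364% to 0.397% of all counts in wild type and 0.404% to 0.441% in SMA, without overlap. After TMM scaling their summed level was 3644 to 4393 CPM in wild type and 3684 to 4079 CPM in SMA, with overlap. A total level of proteasome mRNA had no direction that held on both scales.

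**Figure D1:**
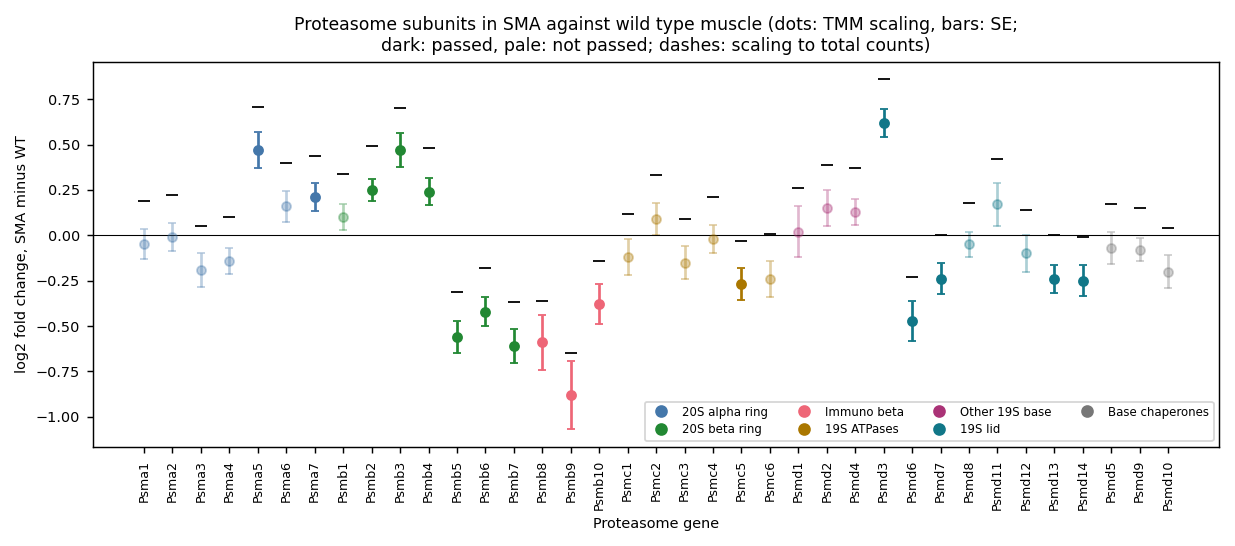
The plot of fold changes shows the log2 fold change of SMA minus wild type for the 37 tested subunits (vertical axis) in order of class (horizontal axis). Dots are the TMM-scaled values with their SE, dark where the adjusted p passed and pale where it did not, and dashes are the values with scaling to total counts. Psmb5, Psmb6 and Psmb7 lie below 0 on both scales beside Psmb1 to Psmb4 above it, and Psmd3 is the highest of all at 0.62.

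The beta subunits of the constitutive core moved in both directions, 3 down and 3 up of 7 tested. These calls are 85.7% of the 7 genes, where 27.7% of all genes rose and 27.2% fell. The 7 genes were set apart by active site after their values were seen, and the grouping was not tested. Psmb5, Psmb6 and Psmb7, which carry the active sites, all fell, while Psmb2, Psmb3 and Psmb4, which have none, rose, and Psmb1, also without an active site, did not pass. The catalytic 3 together took 59.6%, 57.9%, 58.6%, 59.3% and 61.7% of the Psmb1 to Psmb7 counts in wild type libraries 1 to 5, and 45.8%, 46.9%, 47.0% and 46.2% in SMA libraries 1 to 4. This share is a ratio within a library, so it does not depend on the scaling. The lowest wild type library was above the highest SMA library by more than the whole range within either group. Psmb5, Psmb6 and Psmb7 were each lower in all SMA libraries, and Psmb2, Psmb3 and Psmb4 each higher. The separation of this share follows from those values and is no further evidence.

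**Figure D2:**
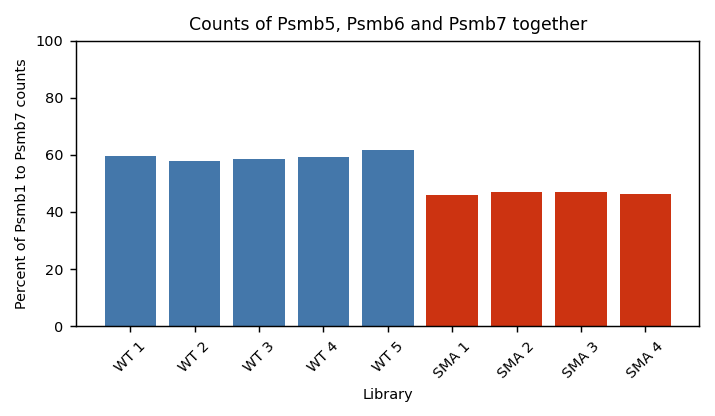
Bars give the counts of Psmb5, Psmb6 and Psmb7 as a percent of the counts of Psmb1 to Psmb7 (vertical axis, from 0) in each library (horizontal axis, wild type in blue and SMA in red). The 5 wild type libraries sit between 57.9% and 61.7% and the 4 SMA libraries between 45.8% and 47.0%.

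Psmb7 encodes the subunit with trypsin-like activity and lies on chromosome 2 (38588036 to 38644087, minus strand, mm10). Its level was 233, 196, 211, 228 and 270 CPM in wild type libraries 1 to 5 and 152, 148, 149 and 147 CPM in SMA libraries 1 to 4. The SMA libraries were closely spaced and all lay below the lowest wild type library. On the log2 scale Psmb7 fell by 0.61 ± 0.096 (SE; edgeR, adjusted p = 0.000214). An exon of Psmb7 shares 405 bases with Nek6, a kinase gene on the opposite strand, and whether the counting used strand is not stated. Nek6 was at 15.1 to 21.1 CPM in wild type and 9.36 to 10.8 CPM in SMA, and also fell, while Psmb7 had 12.8 to 14.8 counts per Nek6 count in wild type and 13.7 to 16.2 in SMA.

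Psmb5 encodes the subunit with chymotrypsin-like activity (chromosome 14, 54614119 to 54618022, minus strand). It was measured at 140, 117, 124, 135 and 145 CPM in wild type and at 88.4, 82.4, 101 and 87.6 CPM in SMA. All 4 SMA libraries were below all 5 wild type libraries, and Psmb5 fell by 0.56 ± 0.09 (SE; edgeR, adjusted p = 0.000276). Psmb6, which encodes the subunit with caspase-like activity (chromosome 11, 70525367 to 70527858, plus strand), was at 236, 200, 214, 229 and 238 CPM in wild type and at 171, 157, 164 and 175 CPM in SMA. Again the groups did not overlap. Psmb6 fell by 0.42 ± 0.081 (SE; edgeR, adjusted p = 0.00093), and with scaling to total counts the difference was -0.18 with an adjusted p of 0.0626.

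Of the 4 beta subunits without an active site, 3 rose and 1 did not pass. Psmb3 (chromosome 11, 97703399 to 97713500, plus strand), described in full because of its values, was at 64.3, 49.8, 57.2, 54.7 and 57.2 CPM in wild type and at 86.7, 72.1, 70.7 and 83.9 CPM in SMA. Every SMA library was higher, and Psmb3 rose by 0.47 ± 0.092 (SE; edgeR, adjusted p = 0.00105). Set against Psmb7 within each library, Psmb3 had 0.212 to 0.276 counts per Psmb7 count in wild type and 0.476 to 0.571 in SMA. This pair was picked after the values were seen. Each gene already separated the groups, in opposite directions, so the ratio had to separate them too. Psmb2 rose by 0.25 ± 0.063 (SE; adjusted p = 0.0047) and Psmb4 by 0.24 ± 0.074 (SE; adjusted p = 0.0144), also without overlap. With sex in the edgeR fit the values were 0.21 for Psmb2 and 0.24 for Psmb4, about as large, with adjusted p of 0.0557 and 0.0664. Psmb1 differed by 0.10 ± 0.073 (adjusted p = 0.259), with a 95% interval from -0.04 to 0.24, and on total counts it passed at 0.34.

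**Figure D3:**
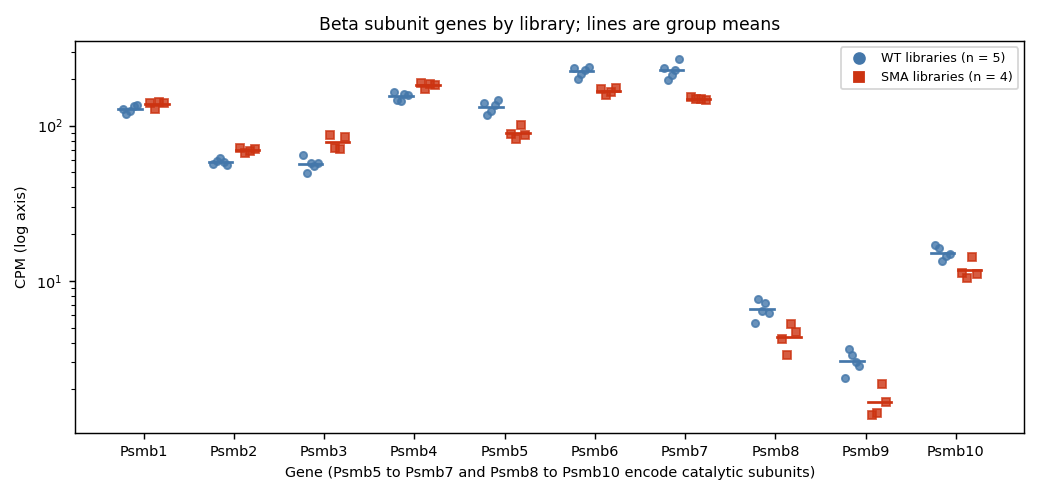
Each point is the level of a beta subunit gene in 1 library in CPM (vertical log axis), with circles for 5 wild type libraries, squares for 4 SMA libraries and lines for group means. The SMA squares lie above the wild type circles for Psmb2, Psmb3 and Psmb4, below them for Psmb5 to Psmb9, and overlap them for Psmb1 and Psmb10.

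Promoter sequence is shown for 3 of these beta genes, Psmb5 and Psmb6 from the group that fell and Psmb3 from the group that rose. The sequences are RefSeq's (GRCm38.p6, the build mm10), read 5′ to 3′ on the gene's strand and ending before the annotated start of the gene. Capitals mark a match to the antioxidant response element core (TGACNNNGC), the kind of motif bound by the transcription factors Nfe2l1 and Nfe2l2, in Psmb5 and Psmb6, and to the interferon-stimulated response element (GAAA, any 2 bases, GAAA, here on the opposite strand) in Psmb3.
Psmb5, chr14:54618023-54618245, minus strand: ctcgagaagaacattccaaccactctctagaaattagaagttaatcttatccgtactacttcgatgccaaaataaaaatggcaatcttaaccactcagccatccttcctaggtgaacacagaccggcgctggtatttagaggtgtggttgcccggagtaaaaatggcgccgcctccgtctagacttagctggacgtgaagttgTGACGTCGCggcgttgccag
Psmb6, chr11:70525107-70525356, plus strand: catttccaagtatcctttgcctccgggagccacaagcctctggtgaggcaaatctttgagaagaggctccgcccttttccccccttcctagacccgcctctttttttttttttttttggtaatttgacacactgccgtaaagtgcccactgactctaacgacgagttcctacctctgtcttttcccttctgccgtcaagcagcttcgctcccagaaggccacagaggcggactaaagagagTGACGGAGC
Psmb3, chr11:97703184-97703398, plus strand: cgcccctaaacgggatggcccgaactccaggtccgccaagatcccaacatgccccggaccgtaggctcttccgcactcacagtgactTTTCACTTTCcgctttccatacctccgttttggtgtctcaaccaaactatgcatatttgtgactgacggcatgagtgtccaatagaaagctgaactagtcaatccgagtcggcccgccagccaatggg

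In the 250 bases before the RefSeq start, searched on both strands, the antioxidant response element core stood in 5 of 34 promoters of 32 matched subunit genes (14.7%), beside 10.2% of 32851 promoters of all genes. Psma8, Psmb1, Psmb2, Psmb7, Psmc3, Psmd3 and Psmd7 had no entry. The 5 promoters with the antioxidant response element core were those of Psmb5, Psmb6, Psmc6, Psmd9 and Psmd12, of which Psmb5 and Psmb6 fell and the other 3 did not pass. The interferon-stimulated element stood in 3 subunit promoters (8.82%, beside 2.98% of all), those of Psmb3, Psmd4 and Psmd9. The gamma-activated site (TTCNNNGAA) stood in 1 (2.94%, beside 7.02%), that of Psmb8, at -97 to -89 from the start. No motif overlapped another in these promoters, and a match describes the letters only.

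All 3 immunoproteasome genes fell, where 27.2% of all genes fell. In bulk tissue such a fall cannot tell fewer cells of a type from less RNA per cell. Psmb9 (chromosome 17, 34181987 to 34187764, minus strand), which replaces Psmb6, was at 2.37, 3.65, 3.32, 3.01 and 2.84 CPM in wild type and at 1.37, 1.41, 2.15 and 1.66 CPM in SMA. The groups did not overlap, although SMA 3 came close to wild type 1, and Psmb9 fell by 0.88 ± 0.19 (SE; edgeR, adjusted p = 0.002). Psmb9 shares 212 exon bases with Tap1, the peptide transporter gene on the opposite strand, and Tap1 rose. The ratio of Psmb9 to Tap1 counts was 0.425 to 0.487 in wild type and 0.136 to 0.252 in SMA. Psmb9 and Tap1 each already separated the groups, in opposite directions, so this ratio had to separate them too.

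Psmb8 (chromosome 17, 34197721 to 34201454, plus strand), which replaces Psmb5, was at 5.32, 7.65, 6.44, 7.17 and 6.24 CPM in wild type and at 4.21, 3.33, 5.28 and 4.66 CPM in SMA. The highest SMA library lay just under the lowest wild type library. Psmb8 fell by 0.59 ± 0.15 (SE; edgeR, adjusted p = 0.00596), and with scaling to total counts its adjusted p was 0.132. Psmb10, which replaces Psmb7, was at 17.1, 16.2, 13.4, 14.5 and 14.99 CPM in wild type and at 11.2, 10.5, 14.1 and 11.1 CPM in SMA. Here SMA 3 exceeded wild type 3, so the groups overlapped, and Psmb10 fell by 0.38 ± 0.11 (SE; edgeR, adjusted p = 0.0114). The call on Psmb10 was lost on total counts (adjusted p = 0.429), on the summed proteasome counts (0.0685) and with sex in the fit (-0.37, adjusted p = 0.057).

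Leukocytes express the immunoproteasome genes at high level, and leukocyte markers were followed beside them. Of 13 markers, 12 were tested, 6 fell, 1 rose (Cd163) and 5 did not pass. That is 58.3% called, near the 54.9% of all genes. Their summed level was 85.2 to 117 CPM in wild type and 72.6 to 94.2 CPM in SMA. Cd3e, which defines T cells, was at 0 to 0.354 CPM over all libraries. Of 4 endothelial markers, 2 fell (Tek at -0.40 and Cdh5 at -0.32), with a summed level of 460 to 589 CPM in wild type and 448 to 521 CPM in SMA. Of 3 fibroblast markers, Col1a1 (-1.54) and Dcn (-0.48) fell and Pdgfra (0.34) rose, with a summed level of 1100 to 2520 CPM in wild type and 595 to 873 CPM in SMA. Col1a1 alone was at 753.1 to 2172 CPM in wild type and 326.5 to 562.9 CPM in SMA, and so made up most of that sum. On total counts 2 leukocyte markers fell and 1 rose, 0 endothelial markers fell, and 1 fibroblast marker fell and 1 rose. The part of these cell types in the fall of Psmb8, Psmb9 and Psmb10 was not tested.

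Because the immune subunits and the constitutive subunits they replace fell together, the share of each immune form was compared within libraries, with counts divided by exon length. Of Psmb8 plus Psmb5, Psmb8 made up 2.70% ± 0.544 (SD, n = 5 wild type) against 2.60% ± 0.305 (SD, n = 4 SMA), with p = 0.762 by a two-sided exact permutation test and 0.762 after adjustment over 3 shares. The share of Psmb9 in Psmb9 plus Psmb6 was 0.805% ± 0.184 against 0.580% ± 0.129 (exact p = 0.0794, adjusted 0.238). For Psmb10 in Psmb10 plus Psmb7 it was 5.65% ± 0.83 against 6.51% ± 0.852 (exact p = 0.175, adjusted 0.262). Without SMA 3, at 7.77% the highest library, the difference in the Psmb10 share fell from 0.868 to 0.45 percentage points. No share passed the test, and each immune gene stayed far below its constitutive counterpart: per kilobase of exon, Psmb8 was at 4.03 CPM and Psmb5 at 147 CPM in wild type.

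Among the alpha subunits, which form the gated outer rings, 2 of 7 tested rose, 0 fell and 5 did not pass. Calls thus covered 28.6% of them, beside 54.9% of all genes. By edgeR at an unadjusted p under 0.05, and by DESeq2 and limma after adjustment, 0 alpha genes fell as well. Psma5 (chromosome 3, 108256926 to 108279974, plus strand) was at 23.5, 18.0, 22.8, 20.9 and 20.9 CPM in wild type and at 31.7, 27.9, 25.4 and 32.6 CPM in SMA. All SMA libraries were higher, and Psma5 rose by 0.47 ± 0.099 (SE; edgeR, adjusted p = 0.00164). Psma7 was at 119, 114, 107, 125 and 123 CPM in wild type and at 144, 127, 131 and 141 CPM in SMA. It rose by 0.21 ± 0.076 (SE; edgeR, adjusted p = 0.0353) without overlap. This call was lost without the filter on low counts (adjusted p = 0.0789), with sex in the fit (0.22, adjusted p = 0.0973), and on leaving out SMA 1 (0.111), SMA 4 (0.0974), wild type 1 (0.0563), wild type 2 (0.0702) or wild type 3 (0.0884).

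The remaining alpha genes lay between -0.19 (Psma3) and 0.16 (Psma6) on the log2 scale. Without SMA 4, Psma3 passed as lower, at -0.26 with an adjusted p of 0.0396. With scaling to total counts 5 of the 7 rose. Psma8, the alpha subunit of germ cells, had 0 to 5 counts per library, and Psmb11, the beta subunit of the thymic cortex, had 0 to 3, so neither was tested.

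In the ATPase ring, which unfolds substrates, 1 of 6 genes fell and 5 did not pass, where 27.2% of all genes fell. Psmc5 (chromosome 11, 106256154 to 106263120, plus strand) was at 183, 138, 160, 149 and 159 CPM in wild type and at 135, 122, 130 and 134 CPM in SMA. The groups did not overlap, wild type 2 being close to SMA 1, and Psmc5 fell by 0.27 ± 0.089 (SE; edgeR, adjusted p = 0.0199). Without SMA 2 its adjusted p was 0.0656, and on total counts 0.751. Psmc6 was at 125, 103, 120, 109 and 144 CPM in wild type and at 107, 105, 92.1 and 103 CPM in SMA, with overlap, and its log2 fold change was -0.24 ± 0.10 (adjusted p = 0.0674). Without wild type 2 it passed, with an adjusted p of 0.0269. Psmc1 to Psmc4 lay between -0.15 and 0.09, and on total counts Psmc2 and Psmc4 rose.

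Of the 3 other base subunits, 0 passed by edgeR, 0 at an unadjusted p under 0.05, and 0 by DESeq2 or limma. Psmd4, a ubiquitin receptor, was at 151, 133, 142, 146 and 153 CPM in wild type and at 168, 153, 156 and 160 CPM in SMA, with a log2 fold change of 0.13 ± 0.073 (adjusted p = 0.138). The lowest SMA library was level with the highest wild type library. Psmd2, a large scaffold, was at 224, 180, 214, 171 and 218 CPM in wild type and at 241, 225, 196 and 234 CPM in SMA, with overlap (0.15 ± 0.10, adjusted p = 0.235). Both rose on total counts, at 0.37 and 0.39. Psmd1, the other scaffold, was at 0.02 with a 95% interval from -0.26 to 0.30.

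In the lid, 1 of 8 genes rose, 4 fell and 3 did not pass. With 62.5% called, the lid was near the 54.9% of all genes, of which rises (27.7%) and falls (27.2%) were about equal. Psmd3, a structural lid subunit (chromosome 11, 98682554 to 98695979, plus strand), was at 145, 122, 133, 124 and 126.1 CPM in wild type and at 215, 197, 188 and 202 CPM in SMA. The groups were far apart, and Psmd3 rose by 0.62 ± 0.079 (SE; edgeR, adjusted p = 4.65e-05), the largest rise among the 37 tested subunits. Psmd6, another structural lid subunit (chromosome 14, 14112174 to 14120984, minus strand), was at 189, 138, 178, 149 and 185 CPM in wild type and at 123, 117, 107 and 137 CPM in SMA. SMA 4 lay just below wild type 2, and Psmd6 fell by 0.47 ± 0.11 (SE; edgeR, adjusted p = 0.00382).

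Within each library, Psmd3 had 0.682 to 0.880 counts per Psmd6 count in wild type and 1.47 to 1.76 in SMA. Of all counts of the 8 lid genes, Psmd3 took 12.1% to 14.4% in wild type and 20.9% to 22.4% in SMA. Both ratios were free of scaling and did not overlap between groups, but they were picked after the values were seen. Psmd3 and Psmd6 each already separated the groups, in opposite directions, so their ratio had to separate them too.

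Psmd14, the lid's deubiquitinase, was at 74.6, 62.1, 66.5, 62.5 and 73.1 CPM in wild type and at 60.2, 56.4, 51.1 and 60.6 CPM in SMA. It fell by 0.25 ± 0.084 (SE; edgeR, adjusted p = 0.0257) with little space between the groups. Its partner Psmd7 fell by 0.24 ± 0.085 (adjusted p = 0.0304) with overlap, and Psmd13 by 0.24 ± 0.076 (adjusted p = 0.0164). These 3 were near 0 on total counts, with adjusted p of 0.925, 0.984 and 0.978. Each lost its call without SMA 2, at 0.0608 for Psmd14, 0.0728 for Psmd7 and 0.0612 for Psmd13. Psmd14 lost it without SMA 3 (0.06) or wild type 1 (0.063), and Psmd7 without SMA 3 (0.0603), SMA 4 (0.057), wild type 1 (0.0709) or wild type 5 (0.051). With sex in the fit both Psmd14 and Psmd7 were at -0.24, with adjusted p of 0.0933 and 0.102. Without wild type 5 and SMA 3 together the adjusted p was 0.0788 for Psmd14 and 0.0794 for Psmd7, and on the summed proteasome counts it was 0.0576 for Psmd13.

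Psmd11, a lid subunit, was at 62.0, 45.1, 54.7, 46.8 and 68.6 CPM in wild type and at 65.1, 66.7, 54.1 and 64.0 CPM in SMA. The groups overlapped, with the highest value in wild type 5, and the log2 fold change of 0.17 ± 0.12 did not pass (adjusted p = 0.258). Without wild type 5 and SMA 3 together it was 0.32 and passed (adjusted p = 0.0156). Those were the highest wild type and the lowest SMA library for Psmd11, so leaving out both had to raise the difference. With any single library left out, Psmd11 did not pass by edgeR (lowest adjusted p = 0.063). Psmd8 and Psmd12 were at -0.05 and -0.10. On total counts 3 lid genes rose, Psmd3, Psmd8 and Psmd11, and 1 fell, Psmd6. The base chaperones, which assemble the ATPase ring and leave the finished particle, did not pass: of 3 genes, 0 passed by edgeR, DESeq2 or limma, and 1 (Psmd10) was lower at an unadjusted p under 0.05. Psmd10 was at 12.8, 11.1, 12.0, 11.8 and 12.6 CPM in wild type and at 11.2, 9.56, 9.78 and 11.5 CPM in SMA (log2 fold change -0.20 ± 0.09, adjusted p = 0.0771), and Psmd9 at 29.7, 28.3, 29.2, 27.8 and 27.8 CPM and 28.3, 27.2, 25.6 and 26.8 CPM (-0.08 ± 0.064, adjusted p = 0.297). Psmd5 was at -0.07.

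**Figure D4:**
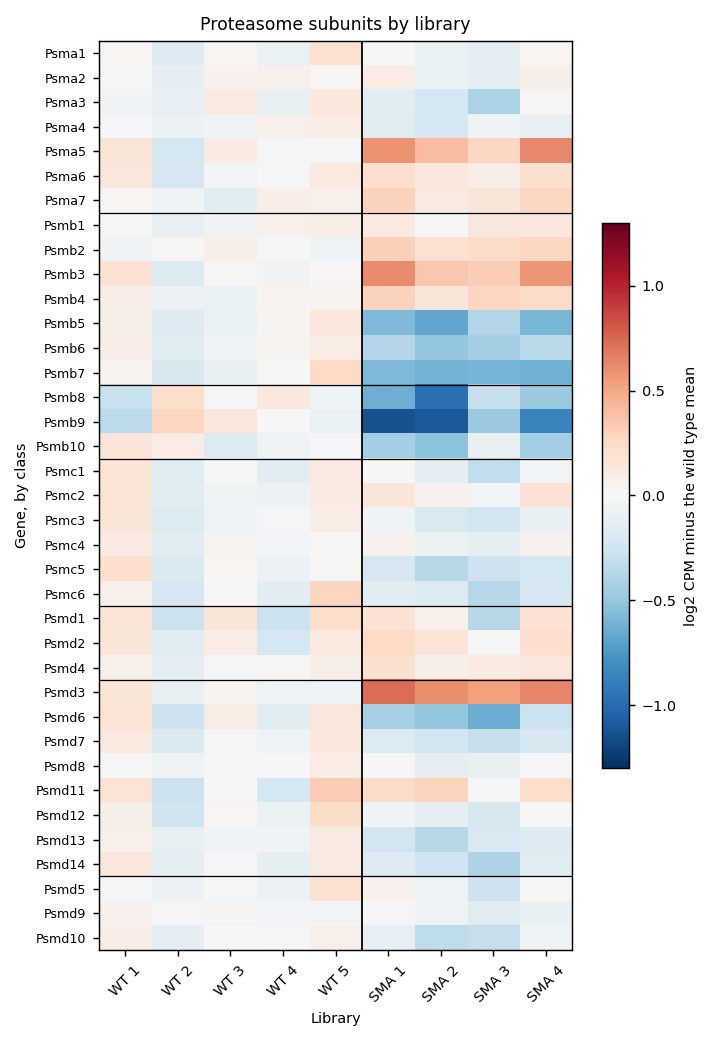
Each cell gives a subunit's log2 CPM in 1 library minus its wild type mean (red higher, blue lower), with the 37 tested genes in rows by class and the 9 libraries in columns. Psma5, Psmb3 and Psmd3 are red and Psmb5, Psmb6 and Psmb7 blue in all 4 SMA libraries, and among the SMA libraries Psmb9 is palest in SMA 3, where it was at 2.15 CPM.

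Of the 17 calls, 7 kept direction and threshold under all 19 other settings tried, namely the rises of Psma5, Psmb3 and Psmd3 and the falls of Psmb5, Psmb7, Psmb9 and Psmd6. Exons of 10 subunit genes overlap another annotated gene, among them Psmd13 with Sirt3 (152 bases), Psmb8 with Gm20496 (117 bases) and Psma5 with 1700010K24Rik (60 bases), each on the opposite strand. Psmb5 overlaps Mir686 (119 bases) and Psmd1 overlaps Gm21972 (154 bases) on the same strand, where strand cannot tell their reads apart. Pseudogene copies at 95% identity or more were found for 11 subunit genes, among them Psmb3 with 3 copies, Psma5 with 2 and Psmb5 with 1. None of the 17 copies has a row in the count table, so how reads were divided between gene and copy is not known and these levels are uncertain.

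Genes that assemble, regulate or supply the proteasome were followed beside it. Of the 48 such genes reported here, 47 were in the table and all were tested: 11 rose, 13 fell and 23 did not pass. That is 51.1% called, near the share of all genes, and on total counts 21 rose and 7 fell. Of 5 assembly factors of the core, 3 fell and 1 rose (80.0% called, beside 54.9% of all genes). Pomp, the maturation factor that brings beta subunits into the core, was at 109, 94.3, 96.6, 103 and 115 CPM in wild type and at 75.0, 75.1, 84.5 and 84.8 CPM in SMA. The groups did not overlap, and Pomp fell by 0.38 ± 0.083 (SE; edgeR, adjusted p = 0.00239). Psmg1, a chaperone of the alpha ring, fell by 0.38 ± 0.083 (adjusted p = 0.00228), while Psmg4, another chaperone of the alpha ring, rose by 0.65 ± 0.11 (adjusted p = 0.000304). On total counts Pomp and Psmg1 did not pass (0.202 and 0.319).

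Of 12 regulators and bound factors, 2 rose and 4 fell (50.0% called, beside 54.9% of all genes). Adrm1, a ubiquitin receptor of the base, was at 28.9 to 31.7 CPM in wild type and at 40.0 to 58.0 CPM in SMA, and rose by 0.68 ± 0.10 (SE; edgeR, adjusted p = 0.000138). Uchl5, the deubiquitinase that Adrm1 recruits, was at 25.3 to 32.6 CPM in wild type and at 16.8 to 18.7 CPM in SMA, and fell by 0.73 ± 0.084 (SE; edgeR, adjusted p = 2.28e-05). The receptor and its partner thus moved in opposite directions, on both scales. Of the activators that open the core, Psme3 fell by 0.39 ± 0.084 (adjusted p = 0.00202, and 0.126 on total counts). Psme1, Psme2 and Psme4 did not pass, at 0.13, -0.08 and 0.06, although Psme1 and Psme4 rose on total counts. Psme4 passed at 0.27 (adjusted p = 0.0254) without wild type 5 and SMA 3 together. Those were its highest wild type and its lowest SMA library, so leaving out both had to raise the difference. With any single library left out, Psme4 did not pass by edgeR (lowest adjusted p = 0.114). Psme1 and Psme2 are interferon-responsive like Psmb8 to Psmb10.

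Nfe2l1, the factor that raises transcription of proteasome genes when the proteasome is inhibited, ran from 331 to 545 CPM in wild type and from 357 to 520 CPM in SMA. The groups overlapped and the log2 fold change of 0.15 ± 0.15 did not pass (adjusted p = 0.422). Without wild type 5 and SMA 3 together Nfe2l1 was at 0.37 and passed (adjusted p = 0.00721). Those were its highest wild type and its lowest SMA library, so leaving out both had to raise the difference. With any single library left out, Nfe2l1 did not pass by edgeR (lowest adjusted p = 0.0829). Nfe2l2, which drives antioxidant genes, was at 0.08 ± 0.11 (adjusted p = 0.526). On total counts both rose, at 0.40 and 0.33. Of 8 genes listed for transcription, 2 rose and 0 fell by edgeR, and 0 fell at an unadjusted p under 0.05 or by DESeq2 or limma. Ddi2, the protease that activates Nfe2l1 protein, rose by 0.70 ± 0.24 (adjusted p = 0.0242) with overlap, from 7.79 to 13.6 CPM in wild type to 9.14 to 22.0 CPM in SMA. Mafk, a small Maf partner, rose by 0.42 ± 0.14 (adjusted p = 0.0253) with overlap. Ddi2 lost its call without SMA 1 (0.0556), SMA 2 (0.0799), SMA 4 (0.0742), wild type 2 (0.0583) or wild type 4 (0.054), and Mafk without SMA 1 (0.0506), SMA 2 (0.0709), wild type 2 (0.0609), wild type 3 (0.0619) or wild type 4 (0.059).

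Of 4 ubiquitin genes and activating enzymes, 1 rose, 1 fell and 2 did not pass (50.0% called, beside 54.9% of all genes). Uba6, an activating enzyme, fell by 0.83 ± 0.20 (adjusted p = 0.00401), and Rps27a, a ubiquitin gene, rose by 0.34 ± 0.087 (adjusted p = 0.00542) with overlap. Of 10 genes that deliver substrates, 4 rose and 1 fell, also 50.0% called. Ufd1l and Nploc4, the cofactors of the segregase Vcp, rose by 0.45 ± 0.076 (adjusted p = 0.000377) and 0.44 ± 0.097 (adjusted p = 0.0022), while Vcp was at -0.10 and did not pass.

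Among 8 genes of antigen presentation, which uses the peptides the immunoproteasome makes, 4 fell, 1 rose and 3 did not pass. Calls covered 62.5% of them, beside 54.9% of all genes, and on total counts 3 fell and 1 rose. Erap1, which trims peptides, was at 13.3 to 16.5 CPM in wild type and at 6.77 to 8.33 CPM in SMA, and fell by 0.99 ± 0.096 (SE; edgeR, adjusted p = 6.06e-06). B2m, the light chain of class I molecules, fell by 0.80 ± 0.12 (adjusted p = 0.000193), from 52.9 to 83.9 CPM in wild type to 39.7 to 46.3 CPM in SMA. Tap1 rose by 0.53 ± 0.13 (adjusted p = 0.00485, and 0.0601 with sex in the fit), against the direction of its neighbour Psmb9.

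**Figure D5:**
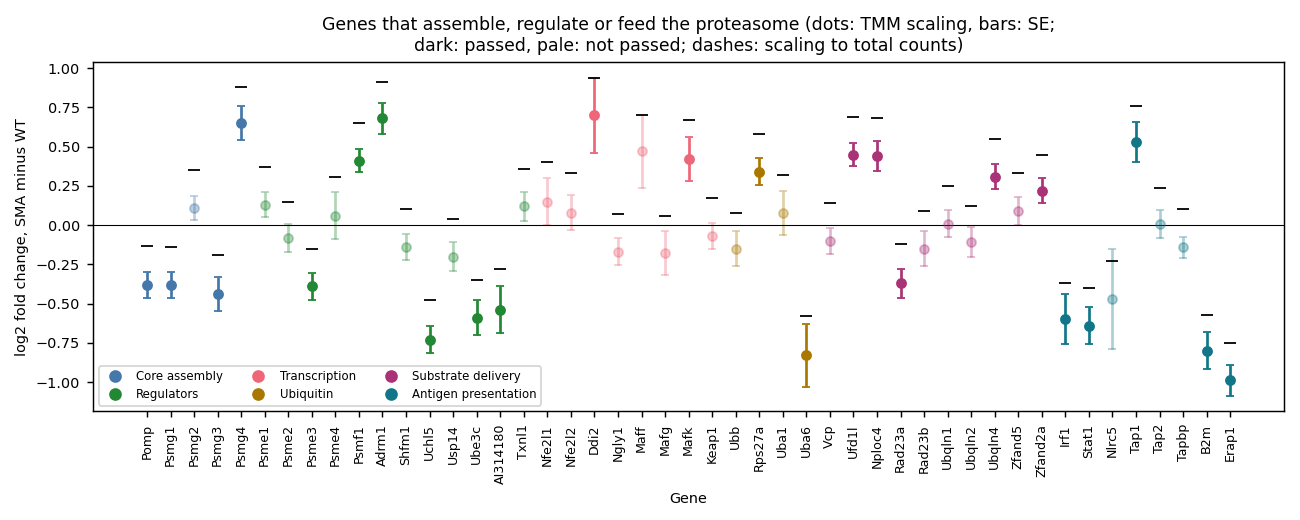
Log2 fold change of SMA minus wild type (vertical axis) for 47 genes around the proteasome (horizontal axis, coloured by list), with TMM-scaled dots and SE bars, dark where passed, and dashes for scaling to total counts. Ddi2 is the highest at 0.70 and Erap1 the lowest at -0.99, and Adrm1 and Uchl5 lie on opposite sides of 0 on both scales.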

How the data were processed

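Per the labels' protocols, total RNA went into stranded mRNA libraries that were read from both ends. The deposited table holds raw whole-number counts per gene and library. The submitters' processing notes name HTSeq 0.9.1, DESeq2 1.16.1 and mm10 without roles; the aligner, annotation and strand setting were not stated. Of 32594 genes, 9145 had no counts. No 2 libraries of a group agreed within sampling noise (chi-square per degree of freedom 11.2 to 81.3).

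Counts were fitted in R 4.3.3 with edgeR 4.0.16 (filterByExpr, TMM, quasi-likelihood test of group over all 9 libraries, Benjamini-Hochberg over 15873 genes, threshold 0.05), and the code was tested on simulated data. The SE is the log2 fold change divided by the square root of F. CPM use TMM-scaled totals over the genes that passed the filter, and scaling to total counts used these totals without TMM. A prior count of 2 entered the log2 CPM only for the correlations of same-numbered libraries. Shares were compared by exact permutation over all divisions of the 9 libraries (scipy 1.17.1) on counts divided by merged exon length. Alternatives used DESeq2 1.42.0, limma 3.58.1, other scalings and filters, a replicate block, sex and left-out libraries. Sex was called from Xist and Y-linked counts.

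Per-library values are given for the 2 tested genes of each class with the lowest adjusted p and a set of named subunits. Log2 fold changes, with ranges for some, are given for the 2 pathway genes of each list with the lowest adjusted p and a named few. Psmb2, Psmb3, Psmb4, Psmd7 and Psmd13, the ratios between subunits and the comparison of Psmb5 to Psmb7 with Psmb1 to Psmb4 were added after their values were seen. Members and lists were chosen with earlier results of these data known. Some listed pathway genes are not reported here. Of the 48 reported, 3 matched by an older name (Sem1 as Shfm1, Ecpas as AI314180, Ufd1 as Ufd1l) and 1, Paaf1, did not match. Positions and exon overlaps are from GENCODE M21, promoters from RefSeq (GRCm38.p6). Pseudogene copies are matches to GENCODE pseudogene transcripts at 95% identity or more over at least 75 bases.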

Additional observations from a re-analysis of the deposited data

Results flagged for a closer look

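Psmd5, a chaperone of the ATPase ring, was at 26.5 CPM in wild type 5, above the 21.9 to 22.9 CPM of the other 4 wild type libraries by a gap wide for the range of the group. It was the 1 value so marked among 80 groups of libraries examined, where chance marks about 1 group in 20. Wild type 5 also held the highest levels of its group for many other subunits, among them Psmb7, Psmc6 and Psmd11, and the highest summed level of the tested subunits (4393 CPM). Its TMM factor of 0.8279 was the lowest of all libraries.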

How the results depend on the processing

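Scaling to total counts moved the results most: 16 subunits rose and 4 fell, 21 pathway genes rose and 7 fell, and 2164 genes fell in place of 4319. The values that changed sign there were Psma1 0.19, Psma2 0.22, Psma3 0.05, Psma4 0.10, Psmc1 0.12, Psmc3 0.09, Psmc4 0.21, Psmc6 0.01, Psmd5 0.17, Psmd7 0.00, Psmd8 0.18, Psmd9 0.15, Psmd10 0.04 and Psmd12 0.14 among subunits, and Psme2 0.15, Shfm1 0.10, Usp14 0.04, Ngly1 0.07, Mafg 0.06, Keap1 0.17, Ubb 0.08, Vcp 0.14, Rad23b 0.09, Ubqln2 0.12 and Tapbp 0.10 among pathway genes; all but Psmd7 were uncalled after TMM scaling. Scaling to the summed proteasome counts, chosen after seeing the data, gave 10 rises and 9 falls, with Psma1 at 0.02, Psma2 at 0.05, Psmc4 at 0.04 and Psmd8 at 0.01. With sex as a covariate 3 subunits rose, the cause of which was not tested, and Psmd1 was at -0.02, Ubqln1 at -0.02 and Tap2 at -0.02. Without the filter on low counts Ubqln1 and Tap2 were at -0.00. Without wild type 5 and SMA 3 together Psma1 was at 0.03, Psma2 at 0.03, Psmc4 at 0.01, Psmd5 at 0.05, Keap1 at 0.01 and Tap2 at -0.03.

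Leaving out each library in turn gave 5 to 6 rises and 7 to 12 falls among subunits, the 7 without SMA 2. The difference in the Psmb8 share of Psmb8 plus Psmb5 then ran from -0.256 to 0.0969 percentage points, positive without wild type 2 (0.0969) or SMA 2 (0.0415). For the Psmb10 share of Psmb10 plus Psmb7 it ran from 0.45 to 1.17. Log2 fold changes that crossed 0 ran from -0.09 to 0.00 for Psma1, -0.05 to 0.03 for Psma2, -0.06 to 0.01 for Psmc4, -0.05 to 0.13 for Psmd1, -0.02 to 0.21 for Psme4, -0.05 to 0.04 for Ubqln1 and -0.02 to 0.07 for Tap2.

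Same-numbered libraries did not deviate together (correlations of 0.118, -0.00555, -0.0482 and 0.0971 for numbers 1 to 4, and 1 of 8 libraries correlated best with its own number), so the numbers were not taken as pairs. With a replicate block 6 subunits rose and 8 fell, Psmd7 (adjusted p = 0.0885), Psmd13 (0.0581) and Psmd14 (0.0666) no longer passing, nor Ddi2 (0.0514) among named pathway genes, Psma1 was at 0.00, 10 pathway genes rose and 13 fell, and 7872 genes were called in place of 8712.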
